A study of Mus musculus with 16 samples.

Results

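The actin, troponin and tropomyosin genes of the thin filament were examined in cardiomyocytes from pressure-loaded and sham-operated mouse hearts. Members were the rows of the deposited gene table whose symbol is Acta1, Actc1, Actb, Actg1, Tnnt2, Tnni3, Tnni1, Tnnc1, Tpm1 or Tpm2. These were 10 of 57010 gene rows, and 9 of the 10 passed the filter on low counts. Tnni1 had 0 to 9 counts in a library, did not pass, and is described by its counts and its ratio to Tnni3. RNA came from cardiomyocytes isolated from hearts of adult C57BL/6 mice, in 4 groups of 4 libraries. PRODH TAC mice received AAV9-PRODH, an adeno-associated virus made to overexpress proline dehydrogenase in the heart, and then transverse aortic constriction (TAC), a surgical narrowing of the aorta that puts the left ventricle under pressure load. Vector TAC mice received AAV9-Vector, the control virus, and the same operation. PRODH sham mice received AAV9-PRODH and a sham operation, and vector sham mice received AAV9-Vector and a sham operation. The virus therefore went into every mouse. Surgery was done 3 weeks after injection and cells were taken 4 weeks after surgery. The labels call the vector mice WT and the others PRODH Overexpression, and they give neither the promoter of the virus nor the age in weeks. They also do not say whether 1 library stands for 1 mouse, so every p-value below reflects the spread among libraries, part of which may be technical.

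The thin filament of the sarcomere is a polymer of actin wound with tropomyosin, and it carries a troponin complex at regular intervals. Calcium binds troponin C, troponin I then releases its hold on actin, and troponin T passes the change to tropomyosin, which moves aside so that myosin can bind. Adult mouse ventricle builds its thin filaments mainly from cardiac actin (Actc1), while skeletal actin (Acta1) belongs to the fetal gene set that returns under pressure load.

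Libraries held 15987580 to 22680212 counts, of which 53.1% to 62.9% fell on genes of the mitochondrial genome and their nuclear copies, and the members took 4.64% to 5.59% of the remainder. The mitochondrial share was 54.5% to 55.6% in PRODH TAC, 53.1% to 55.8% in vector TAC, 59.1% to 62.9% in PRODH sham, against 58.4% to 62.8% in vector sham. Prodh averaged 13.6 ± 1.05 CPM in PRODH TAC, 7.29 ± 1.18 in vector TAC, 13.8 ± 0.955 in PRODH sham, against 10.95 ± 0.454 in vector sham (CPM, normalised counts scaled by library size, SD, n = 4 each). It was higher in PRODH TAC than in vector TAC (log2 fold change 0.90, edgeR adjusted p = 2.19e-08), and in PRODH sham against vector sham the value was 0.33 (edgeR adjusted p = 0.0517). Prodh also fell in vector TAC against vector sham (-0.58, edgeR adjusted p = 2.58e-05). In PRODH TAC against vector sham it was at 0.31 (edgeR adjusted p = 0.0106). Vector TAC libraries 3 and 4 stood apart in the mitochondrial transcript mt-Nd4, with 20080 and 22060 CPM against 25950 to 45800 CPM in the other 14 libraries, so counts of calls are also given without them where that matters. Summed CPM of 8 cardiomyocyte markers was 25010 to 27540 in PRODH TAC, 21140 to 23040 in vector TAC, 31460 to 34430 in PRODH sham, against 31760 to 35120 in vector sham. Summed CPM of 10 fibroblast markers was 325 to 415 in PRODH TAC, 1334 to 1404 in vector TAC, 194 to 197 in PRODH sham, against 144 to 207 in vector sham. No marker of either list was at 0 in a whole group. Of 7 skeletal muscle markers, Myh2 and Myf6 had no count in any library, and the list summed to at most 1.04 CPM in any library.

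Promoter windows of 3 actin genes are shown because they hold the same motif. RefSeq windows on GRCm38.p6 run from 250 bases before to 50 bases after the annotated transcription start, and 9 of the 10 members have at least 1 (11 windows; Actb has none). The 3 shown are on the minus strand and are printed in the direction of transcription: Acta1 at chr8:123894726-123895025, Actc1 at chr2:114052826-114053125 and Actg1 at chr11:120348446-120348745. Capitals mark the CArG box, the site bound by serum response factor (SRF), and, in Acta1, the MCAT element CATTCC bound by TEAD factors.
Acta1: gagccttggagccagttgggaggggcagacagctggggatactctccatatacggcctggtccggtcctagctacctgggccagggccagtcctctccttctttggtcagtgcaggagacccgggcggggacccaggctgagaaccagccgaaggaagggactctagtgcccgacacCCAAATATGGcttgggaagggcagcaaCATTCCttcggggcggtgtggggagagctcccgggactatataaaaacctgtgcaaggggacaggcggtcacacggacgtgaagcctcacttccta
Actc1: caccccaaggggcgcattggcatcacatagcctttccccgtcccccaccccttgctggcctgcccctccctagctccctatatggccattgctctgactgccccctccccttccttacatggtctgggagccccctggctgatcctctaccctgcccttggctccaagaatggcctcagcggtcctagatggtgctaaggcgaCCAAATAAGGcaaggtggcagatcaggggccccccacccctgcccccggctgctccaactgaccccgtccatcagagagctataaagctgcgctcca
Actg1: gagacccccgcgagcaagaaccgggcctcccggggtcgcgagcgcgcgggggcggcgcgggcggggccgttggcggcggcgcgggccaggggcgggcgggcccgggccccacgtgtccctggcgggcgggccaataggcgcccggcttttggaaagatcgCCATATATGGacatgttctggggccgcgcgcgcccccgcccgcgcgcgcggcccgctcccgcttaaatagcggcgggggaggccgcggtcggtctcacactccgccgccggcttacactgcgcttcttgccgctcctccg
The CArG box begins 73 bases upstream of the RefSeq annotated start in Acta1, 47 in Actc1 and 90 in Actg1. All distances rest on that annotation, which puts the TATAAA of Acta1 only 7 bases upstream and that of Actc1 33 bases after the start. It was found in 3 of the 9 members with a window, against 1.63% of all 32851 promoter windows searched on both strands. CATTCC was found in Acta1, Tnnt2, Tnnc1 and Tpm1, against 14.7% of all windows. TATAAA was found in Acta1 and Actc1 (13.6% of all windows), GATAAG in Tnni3 (7.44%), and the MEF2 site in none of the members' windows (3.19%). No match overlapped another. These are matches of letters and say nothing of binding.

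Per length, cardiac actin was the most abundant member in every group. Actc1 averaged 3865 ± 283 RPKM in PRODH TAC, 4187 ± 145 in vector TAC, 4580 ± 264 in PRODH sham, against 4598 ± 411 in vector sham (normalised counts scaled by library and gene length, SD, n = 4). Tpm1 came next on this scale in every group, and its libraries overlapped those of Actc1 in PRODH sham. Tnnt2, Tnni3 and Tnnc1 followed, between 1919 and 3559 RPKM as group means, and Acta1 stood sixth throughout. Tnni3 stood above Tnnc1 on the RPKM scale in both sham groups, with libraries that overlapped those of Tnnt2. In the TAC groups the libraries of Tnni3 and Tnnc1 overlapped each other, and Tnnc1 had the higher mean in vector TAC. Actg1 and Actb averaged 63.6 to 118 RPKM and overlapped each other in every group. Tpm2 averaged 3.52 to 7.89 RPKM and Tnni1 at most 0.246 RPKM.

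**Figure D1:**
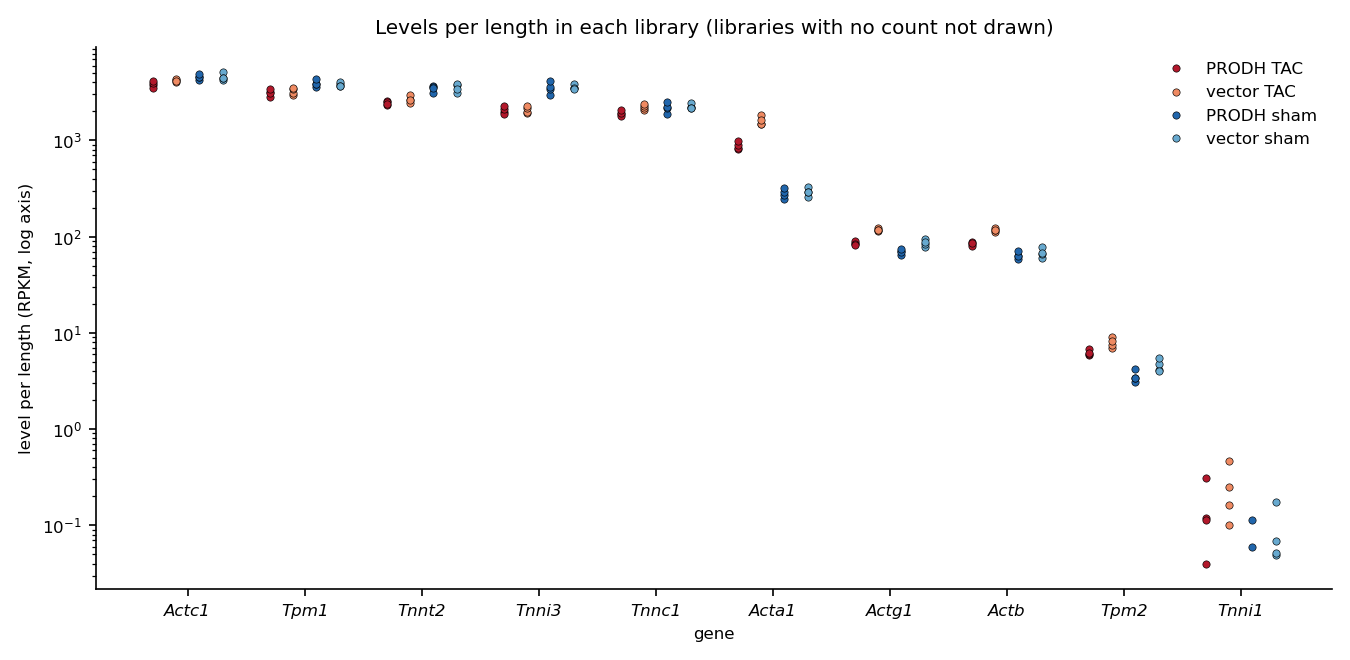
Level per length (RPKM, log axis) of each member in the 16 libraries, coloured by group, with genes ordered by their mean. Acta1 averaged 883 RPKM in PRODH TAC, 1602 in vector TAC, 283 in PRODH sham, against 293 in vector sham, while Actc1 averaged 3865 to 4598 RPKM over the groups and Tnni1 averaged at most 0.246 RPKM.

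In vector hearts, 7 of the 9 tested members passed the threshold between TAC and sham, where 56.5% of all 14066 tested genes did (edgeR quasi-likelihood test, Benjamini-Hochberg adjusted p under 0.05). Acta1, Actb, Actg1 and Tpm2 rose (4 members; 30.3% of all genes were higher), and Tnnt2, Tnni3 and Tpm1 fell (3 members; 26.2% were lower). These 7 were also the members whose vector TAC libraries did not overlap those of vector sham, as in 47.1% of all genes. The median log2 fold change was -0.01 over the members and 0.02 over all genes.

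With PRODH after TAC, set against vector TAC, 5 members were lower and 0 higher (43.1% of all genes passed, 24.6% lower and 18.5% higher). These were Acta1, Actb, Actg1, Tnnc1 and Tpm2, each with libraries that did not overlap (39.3% of all genes), and the median was -0.22 over the members and -0.04 over all genes. Without vector TAC libraries 3 and 4 the count was 3, since Tnnc1 (-0.15, edgeR adjusted p = 0.223) and Tpm2 (-0.20, edgeR adjusted p = 0.189) no longer passed. Between PRODH TAC and PRODH sham, 8 members passed (35.0% of all genes). Acta1, Actb, Actg1 and Tpm2 rose (17.2% of all genes were higher), and Actc1, Tnnt2, Tnni3 and Tpm1 fell (17.8% were lower), all 8 without overlap (34.7%).

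Between PRODH sham and vector sham, 1 member passed, Actg1, which was lower and without overlap (5.0% of all genes passed, 2.81% higher and 2.20% lower, and 10.4% did not overlap). Between PRODH TAC and vector sham, 3 members were higher and 5 lower, without overlap (43.2% of all genes passed, 22.0% higher and 21.2% lower, and 39.6% did not overlap). The TAC effect differed between the viruses for 2 members, Acta1 and Actb, both in the negative direction (26.8% of all genes passed, 10.9% positive and 15.8% negative). These comparisons share groups and are not independent of each other. In bulk RNA, fewer cells of a type and less RNA per cell cannot be told apart.

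The direction of small changes between TAC and sham rests on the scaling. TMM, used throughout, sets the median gene near 0. With library size as the only scaling, the median over all genes was 0.37 in vector TAC against vector sham, 0.40 in PRODH TAC against PRODH sham and 0.42 in PRODH TAC against vector sham, and the share of passing genes that were higher was 86.2%, 96.2% and 95.2%, against 53.6%, 49.2% and 50.9% with TMM. The mitochondrial share of counts given above was lower in every TAC library than in every sham library, and its part in these shifts was not tested. Changes below are relative to the median gene unless a ratio is given. For PRODH TAC against vector TAC the median was 0.0017 under library size alone and -0.04 with TMM.

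**Figure D2:**
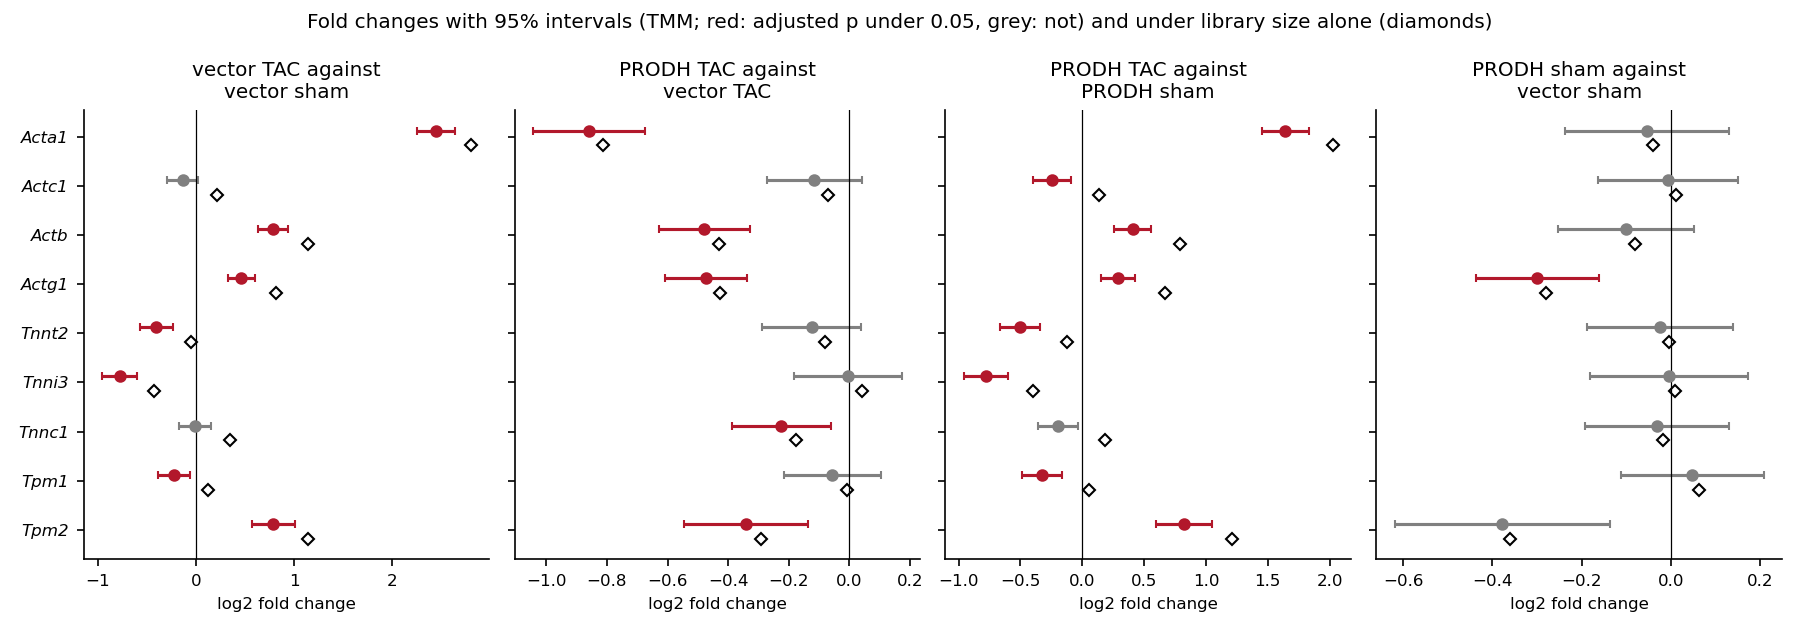
Log2 fold change of the 9 tested members in 4 comparisons, as TMM values with 95% intervals (red where the edgeR adjusted p is under 0.05, grey otherwise) and under library size alone (open diamonds); each panel has its own axis. Acta1 lies farthest from 0 in the 3 comparisons that involve a TAC group, at 2.45 in vector TAC against vector sham, and the diamonds of Actc1, Tnnc1 and Tpm1 lie on the other side of 0 from the TMM points in both comparisons of TAC with sham.

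Skeletal actin had the largest change of the 9 tested members in each comparison that includes a TAC group. Acta1 (ENSMUSG00000031972) had 1184, 1193, 1306 and 1424 CPM in PRODH TAC, 2161, 2123, 2638 and 2346 CPM in vector TAC, 352, 394, 422 and 468 CPM in PRODH sham, against 370, 477, 424 and 425.5 CPM in vector sham. The 2 sham groups overlapped, every TAC library lay above every sham library, and every PRODH TAC library lay below every vector TAC library. Acta1 was 5.46 times as high in vector TAC as in vector sham (log2 fold change 2.45 ± 0.09 SE, edgeR adjusted p = 4.64e-19). It was 3.12 times as high in PRODH TAC as in PRODH sham (1.64 ± 0.09, edgeR adjusted p = 5.47e-14). In PRODH TAC it was 0.551 times the vector TAC level (-0.86 ± 0.09, edgeR adjusted p = 6.42e-09), and still 3.01 times that of vector sham (1.59 ± 0.09, edgeR adjusted p = 2.94e-14). The TAC effect was smaller with PRODH than with the vector by 0.81 on the log2 scale (interaction -0.81 ± 0.13, edgeR adjusted p = 2e-05). Between the sham groups the difference was -0.05, with a 95% interval of -0.24 to 0.13. Summed fibroblast markers were also highest in vector TAC, and their part in the Acta1 values was not tested.

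Cardiac actin moved far less. Actc1 (ENSMUSG00000068614), the main actin of the adult ventricle, had 5508, 5215, 5886 and 6164 CPM in PRODH TAC, 5891, 6200, 6408 and 6172 CPM in vector TAC, 6249, 6779, 6759 and 7200 CPM in PRODH sham, against 6221, 7636, 6632 and 6604 CPM in vector sham. Vector TAC overlapped both PRODH TAC and vector sham, while PRODH TAC lay below both sham groups. Actc1 did not pass in vector TAC against vector sham (-0.14, interval -0.29 to 0.02, edgeR adjusted p = 0.137), and scaled by library size alone it was higher (0.22, edgeR adjusted p = 0.0091). It fell in PRODH TAC against PRODH sham (-0.24 ± 0.08, edgeR adjusted p = 0.0136), a direction that turned under library size alone (0.13, edgeR adjusted p = 0.104). That call was also lost without PRODH sham library 2, 3 or 4 or PRODH TAC library 2 (edgeR adjusted p = 0.058 to 0.0827). Against vector sham it was lower in PRODH TAC (-0.25, edgeR adjusted p = 0.00935), lost without vector sham library 2 (-0.16, edgeR adjusted p = 0.111) and turned under library size alone (0.15).

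The balance of the sarcomeric actins does not depend on library scaling. Per length, Acta1 stood to Actc1 as 0.219, 0.233, 0.226 and 0.235 in PRODH TAC, 0.374, 0.349, 0.419 and 0.387 in vector TAC, 0.0574, 0.0592, 0.0636 and 0.0662 in PRODH sham, against 0.0606, 0.0636, 0.0651 and 0.0656 in vector sham. Of the summed level of both, Acta1 made up 18.6% ± 0.488 in PRODH TAC, 27.6% ± 1.54 in vector TAC, 5.80% ± 0.356 in PRODH sham, against 5.99% ± 0.202 in vector sham (SD, n = 4). The sham groups overlapped and the TAC groups did not overlap with any other group. Ratios were tested with a two-sided exact permutation test over libraries, which with 4 against 4 cannot go below p = 0.0286, or 0.04 after Benjamini-Hochberg adjustment over the 28 ratio comparisons that could be computed. The Acta1 to Actc1 ratio reached that smallest p in vector TAC against vector sham, in PRODH TAC against vector TAC and in PRODH TAC against PRODH sham, with log2 differences of 2.58, -0.74 and 1.89. In PRODH sham against vector sham the difference was -0.05 (exact permutation p = 0.343, adjusted 0.384). Some reads could not be placed on 1 actin: Acta1 had fractional counts in 9 libraries and Actc1 in 2, and their coding sequences are 86.2% identical with no identical stretch over 29 bases (GENCODE M21).

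The cytoplasmic actins, which form the cytoskeleton of muscle and non-muscle cells alike, were higher after TAC. Actb (ENSMUSG00000029580) had 162, 169, 153 and 163 CPM in PRODH TAC, 216, 225, 236 and 225 CPM in vector TAC, 121.5, 112, 121 and 135 CPM in PRODH sham, against 115.5, 128, 151 and 129 CPM in vector sham. All TAC libraries lay above all sham libraries, and PRODH TAC lay below vector TAC without overlap. Actb was 1.72 times as high in vector TAC as in vector sham (0.79 ± 0.07, edgeR adjusted p = 2.66e-10) and 1.33 times as high in PRODH TAC as in PRODH sham (0.41 ± 0.07, edgeR adjusted p = 8.43e-05). PRODH TAC had 0.718 times the Actb of vector TAC (-0.48 ± 0.07, edgeR adjusted p = 4.65e-06). The interaction was -0.38 ± 0.10 (edgeR adjusted p = 0.00741), and without vector sham library 1 it did not pass (-0.27, edgeR adjusted p = 0.0581).

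Actg1 (ENSMUSG00000062825), the gamma counterpart of Actb, had 158, 163, 152 and 149 CPM in PRODH TAC, 209, 226, 214 and 214 CPM in vector TAC, 128, 119, 127 and 136 CPM in PRODH sham, against 142, 154, 171 and 159 CPM in vector sham. Among the sham groups every PRODH sham library of Actg1 lay below every vector sham library (-0.30 ± 0.07, edgeR adjusted p = 0.00483), and Actb overlapped there (-0.10, edgeR adjusted p = 0.578). Actg1 rose in vector TAC against vector sham (0.46 ± 0.07, edgeR adjusted p = 8.27e-07) and in PRODH TAC against PRODH sham (0.29 ± 0.07, edgeR adjusted p = 0.0013). It was lower in PRODH TAC than in vector TAC (-0.47 ± 0.07, edgeR adjusted p = 1.17e-06). PRODH TAC overlapped vector sham (-0.01, interval -0.15 to 0.12), and under library size alone Actg1 was higher there (0.39, edgeR adjusted p = 2.08e-05). Its interaction did not pass (-0.17, interval -0.37 to 0.02, edgeR adjusted p = 0.176).

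Per length, the Actb to Actg1 ratio was 0.977, 0.988, 0.960 and 1.04 in PRODH TAC, 0.981, 0.948, 1.05 and 1.00 in vector TAC, 0.902, 0.895, 0.905 and 0.944 in PRODH sham, against 0.776, 0.787, 0.837 and 0.772 in vector sham. The TAC groups overlapped each other (log2 difference -0.004, exact permutation p = 0.914), and vector sham lay below the other 3 groups. Between PRODH sham and vector sham the log2 difference was 0.20 (exact permutation p = 0.0286, adjusted 0.04), and between vector TAC and vector sham it was 0.33 with the same p. Both cytoplasmic genes had fractional counts, Actb in 13 libraries and Actg1 in 10. Their coding sequences are 88.7% identical, with an identical stretch of 62 bases, and Actb shares 77 bases with Acta1, so how the authors' counting divided such reads bears on these values. Fibroblast markers moved with the cytoplasmic actins in the comparisons with vector TAC, with the sums given above. In vector TAC against vector sham 10 of 10 rose (30.3% of all genes). In PRODH TAC 10 of 10 were lower than in vector TAC (24.6%). Endothelial markers (8 of 8) and myeloid markers (8 of 8, then 7 of 8) did likewise. In PRODH TAC against PRODH sham, 9 fibroblast, 7 endothelial and 1 myeloid marker rose (17.2% of all genes). In PRODH sham against vector sham, where Actg1 was lower, 0 fibroblast, 1 endothelial and 4 myeloid markers were higher (2.81%). With 1 library left out, 0 to 5 myeloid markers passed in either comparison, and 8 passed in the first under library size alone. Without vector TAC libraries 3 and 4, 5 endothelial markers passed in PRODH TAC against vector TAC. Their part in the actin values was not tested.

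**Figure D3:**
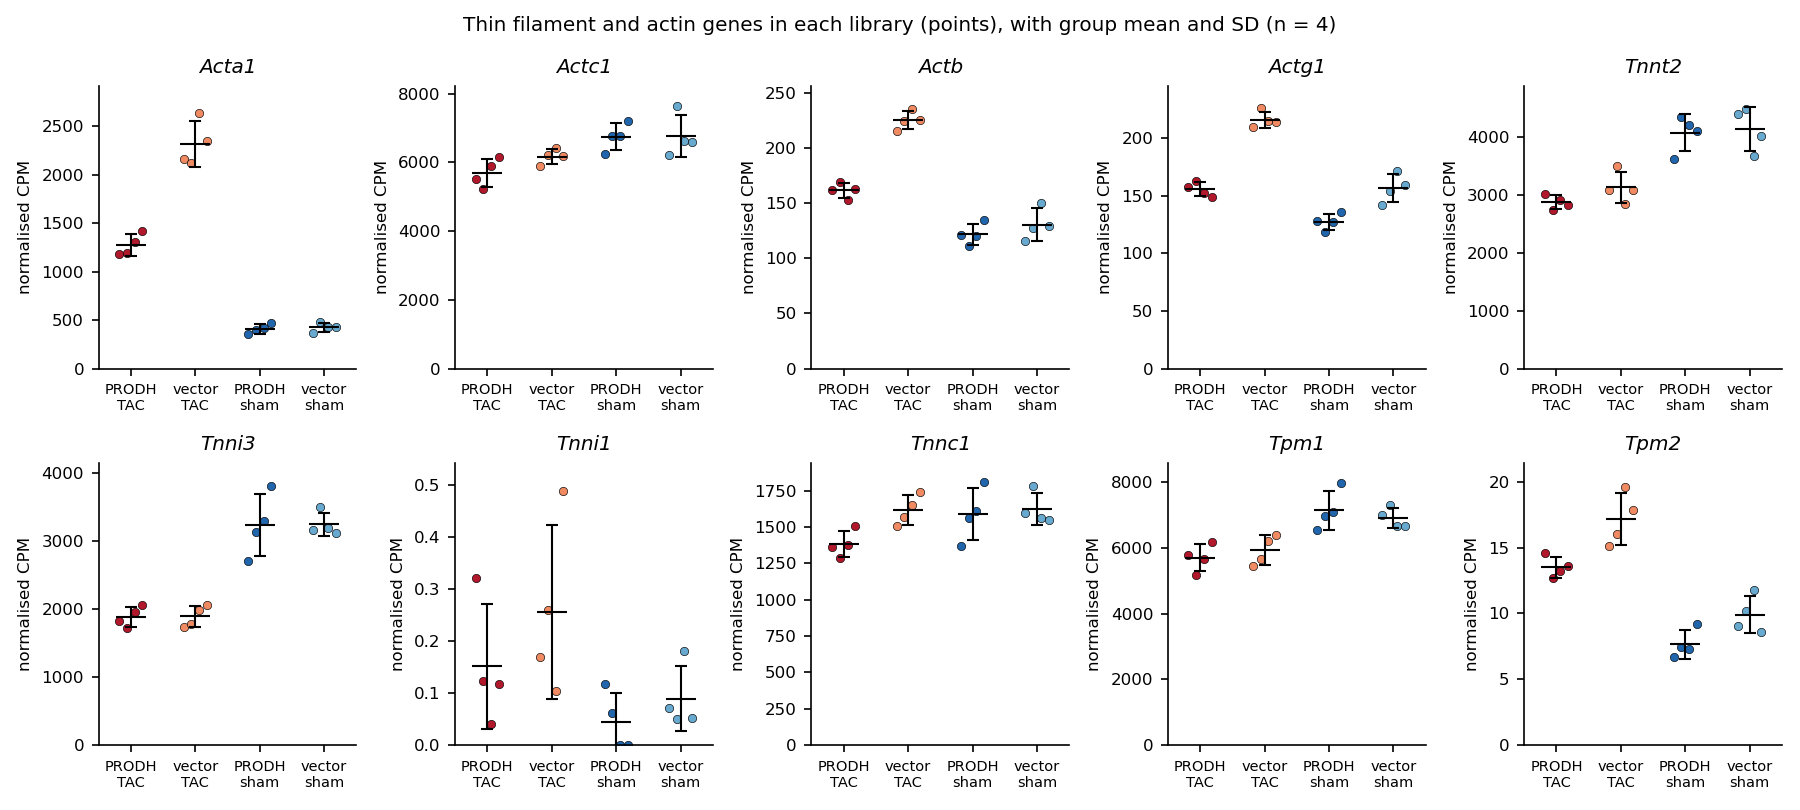
Normalised CPM of each member in the 16 libraries (points) with the group mean and SD (n = 4), on linear axes that start at 0. Acta1, Actb, Actg1 and Tpm2 are highest in vector TAC, Tnni3 averages 1886 CPM in PRODH TAC and 1893 CPM in vector TAC, and Tnni1 stays below 0.5 CPM.

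Troponin T and troponin I fell after TAC with TMM scaling, and under library size alone troponin I still passed while troponin T did not. Tnnt2 (ENSMUSG00000026414), cardiac troponin T, had 3022, 2732, 2920 and 2821 CPM in PRODH TAC, 3086, 3503, 2851 and 3093 CPM in vector TAC, 3623, 4351, 4212 and 4114 CPM in PRODH sham, against 4398, 4485, 3666 and 4013 CPM in vector sham. The TAC groups overlapped, and each lay below both sham groups. Tnnt2 fell in vector TAC against vector sham (-0.40 ± 0.08, edgeR adjusted p = 9.03e-05) and in PRODH TAC against PRODH sham (-0.50 ± 0.08, edgeR adjusted p = 1.47e-05). Under library size alone neither passed, at -0.05 (edgeR adjusted p = 0.624) and -0.13 (edgeR adjusted p = 0.199). The difference between PRODH TAC and vector TAC was -0.12, with an interval of -0.29 to 0.04 (edgeR adjusted p = 0.213).

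Tnni3 (ENSMUSG00000035458), cardiac troponin I, fell more than Tnnt2 and Tnnc1 after TAC. It had 1819, 1715, 1951 and 2059 CPM in PRODH TAC, 1738, 1785, 1985 and 2064 CPM in vector TAC, 2710, 3132, 3292 and 3816 CPM in PRODH sham, against 3169, 3498, 3192 and 3124 CPM in vector sham. Every TAC library lay below every sham library, and the TAC groups overlapped almost fully. Tnni3 in vector TAC was 0.583 times that of vector sham (-0.78 ± 0.09, edgeR adjusted p = 8.9e-09), and in PRODH TAC 0.583 times that of PRODH sham (-0.78 ± 0.09, edgeR adjusted p = 5.98e-08). Both passed under library size alone too, at -0.43 and -0.40. PRODH TAC against vector TAC gave -0.01 with an interval of -0.18 to 0.17, and the interaction gave -0.002 with an interval of -0.25 to 0.25. The intervals thus leave room for a difference of up to 0.18 between the TAC groups and 0.25 between the TAC effects, on the log2 scale. Of 8 cardiomyocyte markers, 7 fell and 1 rose in vector TAC against vector sham (26.2% and 30.3% of all genes). Under library size alone 5 of the 8 passed there. In PRODH TAC 5 of these markers were higher and 1 lower than in vector TAC (18.5% and 24.6% of all genes). Their part in the troponin values was not tested.

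Tnni1 (ENSMUSG00000026418), the slow skeletal troponin I of the fetal heart, was at the limit of detection. Its summed counts were 15 in PRODH TAC (95% exact Poisson interval 8.395 to 24.7), 20 in vector TAC (12.2 to 30.9), 3 in PRODH sham (0.619 to 8.77) and 6 in vector sham (2.20 to 13.1). Set against 151152 counts of Tnni3 in vector TAC, the 20 counts came to 0.0132% (exact Clopper-Pearson interval 0.00808% to 0.0204%), the highest of the 4 groups. These intervals cover counting error only. As a single gene it could be tested only without the count filter, where its smallest edgeR adjusted p was 0.182 (vector TAC against vector sham, log2 fold change 1.46). The Tnni1 to Tnni3 ratio could be computed in 3 comparisons and passed in none. Its log2 difference in vector TAC against vector sham was 2.29 (exact permutation p = 0.0571, adjusted 0.0761), with libraries that overlapped. 2 of the 4 PRODH sham libraries had no count, which allows up to 3 counts each.

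Tnnc1 (ENSMUSG00000091898), the calcium-binding troponin C of heart and slow muscle, had 1364, 1288, 1377 and 1504 CPM in PRODH TAC, 1504, 1572, 1649 and 1739 CPM in vector TAC, 1371, 1564, 1612 and 1808 CPM in PRODH sham, against 1594, 1785, 1563 and 1549 CPM in vector sham. In vector TAC against vector sham it did not pass (-0.01, interval -0.17 to 0.16, edgeR adjusted p = 0.954), and under library size alone it was higher (0.34, edgeR adjusted p = 0.000111). PRODH TAC was lower than vector TAC by a small margin (-0.22 ± 0.08, edgeR adjusted p = 0.0231). That call was lost in 10 of the 16 fits that left out 1 library (vector sham 1, 2, 3 or 4, PRODH sham 2 or 3, vector TAC 4, PRODH TAC 1, 2 or 3), with edgeR adjusted p up to 0.0857. The value between PRODH TAC and PRODH sham was -0.20 (edgeR adjusted p = 0.0506), and 0.18 under library size alone (edgeR adjusted p = 0.0293).

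After TAC, transcripts of Tnni3 and, to a smaller degree, of Tnnt2 fell relative to Tnnc1. Proteins were not measured. Per length, the Tnni3 to Tnnc1 ratio was 1.05, 1.05, 1.12 and 1.08 in PRODH TAC, 0.914, 0.898, 0.951 and 0.939 in vector TAC, 1.56, 1.58, 1.61 and 1.67 in PRODH sham, against 1.57, 1.55, 1.61 and 1.59 in vector sham. Sham libraries of both viruses overlapped, and PRODH TAC lay between vector TAC and the sham groups without touching either. The log2 difference was -0.77 in vector TAC against vector sham, -0.58 in PRODH TAC against PRODH sham and 0.22 in PRODH TAC against vector TAC (exact permutation p = 0.0286 and adjusted 0.04 in each). In PRODH TAC against vector TAC, Tnni3 itself was at -0.01 and Tnnc1 at -0.22. The difference in ratio there thus lay in Tnnc1, whose own call was lost in 10 of the 16 fits that left out 1 library. The Tnnt2 to Tnnc1 ratio was 1.28 ± 0.0891 in PRODH TAC, 1.20 ± 0.145 in vector TAC, 1.59 ± 0.132 in PRODH sham, against 1.57 ± 0.106 in vector sham (SD, n = 4). Both TAC groups lay below both sham groups, and the TAC groups overlapped (0.10, exact permutation p = 0.286, adjusted 0.348).

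**Figure D4:**
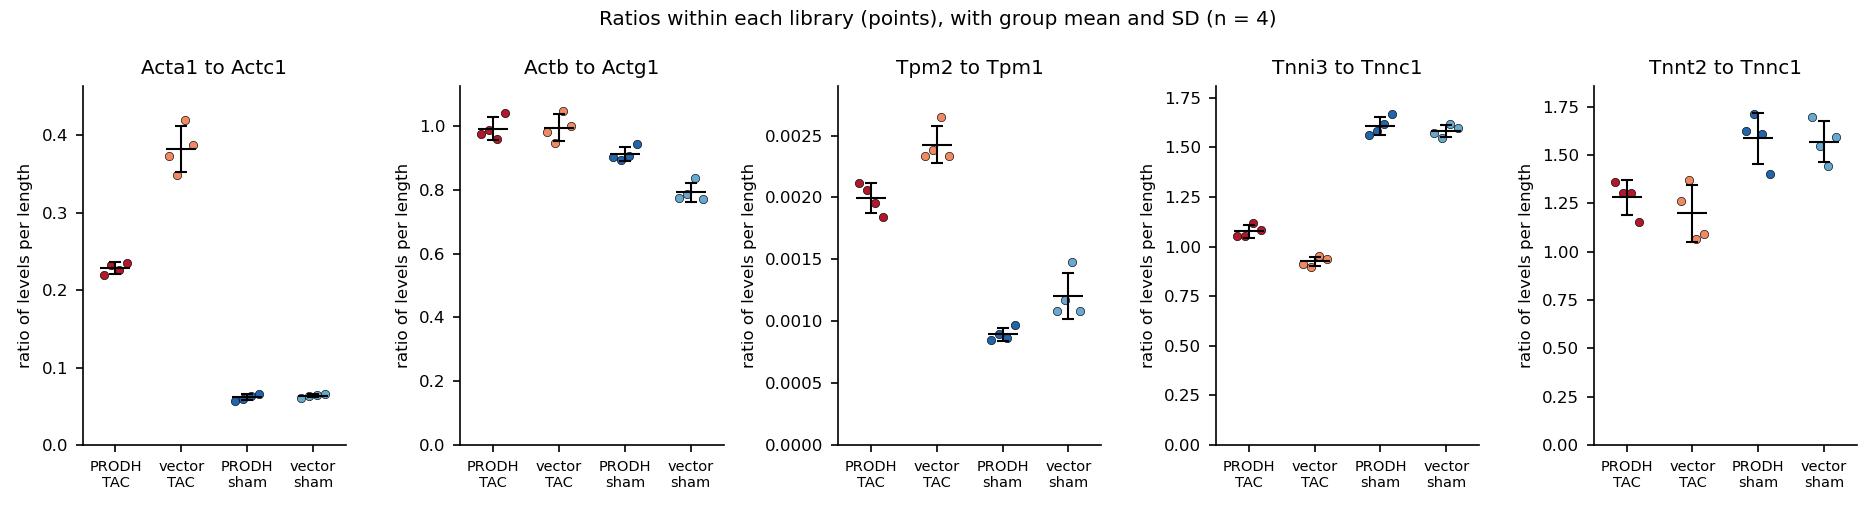
Ratio of levels per length within each library for 5 pairs of members (points), with group mean and SD (n = 4), on linear axes from 0. PRODH TAC lies between vector TAC and the sham groups for Acta1 to Actc1 (means 0.228 and 0.382 in PRODH TAC and vector TAC) and for Tnni3 to Tnnc1 (1.08 and 0.925), and overlaps vector TAC for Actb to Actg1 and Tnnt2 to Tnnc1. In PRODH TAC against vector TAC the log2 fold change was -0.01 for Tnni3 itself and -0.22 for Tnnc1.

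The tropomyosins moved in opposite directions after TAC with TMM scaling. Tpm1 (ENSMUSG00000032366), the alpha chain that makes up most cardiac tropomyosin in the mouse, had 5788, 5181, 5657 and 6173 CPM in PRODH TAC, 5438, 5648, 6213 and 6401 CPM in vector TAC, 6555, 6958, 7094 and 7972 CPM in PRODH sham, against 7009, 7298, 6671 and 6666 CPM in vector sham. It fell in vector TAC against vector sham (-0.22 ± 0.08, edgeR adjusted p = 0.0169), which was 0.13 under library size alone and did not pass without vector TAC library 1 (-0.18, edgeR adjusted p = 0.0712). It fell in PRODH TAC against PRODH sham (-0.33 ± 0.08, edgeR adjusted p = 0.00169), which was 0.06 under library size alone. The TAC groups overlapped (-0.06, interval -0.22 to 0.10, edgeR adjusted p = 0.593).

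Tpm2 (ENSMUSG00000028464), the beta chain that is more abundant in fetal heart and slow muscle, had 14.6, 12.7, 13.2 and 13.6 CPM in PRODH TAC, 15.1, 16.1, 19.6 and 17.8 CPM in vector TAC, 6.65, 7.41, 7.33 and 9.20 CPM in PRODH sham, against 9.04, 10.2, 11.8 and 8.62 CPM in vector sham. All TAC libraries were above all sham libraries, and PRODH TAC was below vector TAC without overlap. Tpm2 was 1.73 times as high in vector TAC as in vector sham (0.79 ± 0.11, edgeR adjusted p = 2.52e-07) and 1.77 times as high in PRODH TAC as in PRODH sham (0.83 ± 0.11, edgeR adjusted p = 1.24e-06). PRODH TAC had 0.790 times the Tpm2 of vector TAC (-0.34 ± 0.10, edgeR adjusted p = 0.00674), a call lost without vector TAC libraries 3 and 4 as given above. The interaction was 0.04 with an interval of -0.28 to 0.35. Between the sham groups the value was -0.38 ± 0.12 and missed the threshold (edgeR adjusted p = 0.0589), and it passed without vector sham library 4 (0.036), PRODH sham library 4 (0.0152) or vector TAC library 3 (0.0481), all edgeR adjusted p.

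Per length, Tpm2 stood to Tpm1 as 0.00211, 0.00206, 0.00196 and 0.00184 in PRODH TAC, 0.00233, 0.00238, 0.00265 and 0.00234 in vector TAC, 0.000851, 0.000893, 0.000867 and 0.000967 in PRODH sham, against 0.00108, 0.00117, 0.00148 and 0.00108 in vector sham. No group overlapped another, in the order vector TAC, PRODH TAC, vector sham and PRODH sham from high to low. The log2 difference was 1.02 in vector TAC against vector sham, -0.28 in PRODH TAC against vector TAC, 1.16 in PRODH TAC against PRODH sham and -0.42 in PRODH sham against vector sham (exact permutation p = 0.0286, adjusted 0.04 in each). Tpm2 remained a small fraction, 0.242% ± 0.0148 of the summed level of both in vector TAC (SD, n = 4). As with Acta1, summed fibroblast markers were also highest in vector TAC, and their part in the Tpm2 values was not tested.

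Other isoforms of these families were read from a list that adds Acta2, Actg2, Tnnt1, Tnnt3, Tnni2, Tnnc2, Tpm3 and Tpm4. Of 7 that were tested, 3 rose and 2 fell in vector TAC against vector sham (56.5% of all genes passed), and 2 were higher and 3 lower in PRODH TAC against vector TAC (43.1%). Tnnt3 is among the 3 that rose and the 3 that were lower, and it met the count filter only through vector TAC. Tpm3, a tropomyosin of slow muscle and of the cytoskeleton, averaged 37.5 ± 2.75 CPM in PRODH TAC, 49.9 ± 4.42 in vector TAC, 28.2 ± 1.69 in PRODH sham, against 24.1 ± 2.04 in vector sham (SD, n = 4). It rose in vector TAC against vector sham (1.045 ± 0.0806, edgeR adjusted p = 3.95e-12) and was lower in PRODH TAC than in vector TAC (-0.41 ± 0.08, edgeR adjusted p = 8.05e-05). Tpm4, a mainly cytoskeletal tropomyosin, took the same course (0.70 and -0.42, edgeR adjusted p = 3e-08 and 0.00012). So did the fibroblast markers, and their part in the Tpm3 and Tpm4 values was not tested.

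Acta2, the smooth muscle actin, moved opposite to Acta1, Actb and Actg1 in both comparisons. It averaged 71.2 ± 5.17 CPM in PRODH TAC, 52.3 ± 4.95 in vector TAC, 79.7 ± 6.53 in PRODH sham, against 94.1 ± 6.04 in vector sham (SD, n = 4). Acta2 fell in vector TAC against vector sham (-0.85 ± 0.08, edgeR adjusted p = 1.66e-10) and was higher in PRODH TAC than in vector TAC (0.45 ± 0.08, edgeR adjusted p = 3.08e-05). Of 8 smooth muscle and pericyte markers, 5 rose in vector TAC against vector sham and Acta2 was the 1 that fell, and the list summed to 435 to 490 CPM in vector TAC, against 303 to 334 CPM in vector sham. Tnnt1, slow skeletal troponin T, fell in vector TAC against vector sham (-1.10 ± 0.14, edgeR adjusted p = 1.62e-07), at 4.31 ± 0.509 CPM in vector TAC and 9.16 ± 1.41 CPM in vector sham (SD, n = 4). Tnnt3, fast skeletal troponin T, had 9 to 11 counts a library in vector TAC, against 0 to 7 in vector sham. It met the filter on low counts only through the vector TAC libraries, where it was high. Its call (1.97 ± 0.63, edgeR adjusted p = 0.00839) is therefore no evidence of a rise. Tnnt3 did not pass without vector TAC libraries 3 and 4 (1.81, edgeR adjusted p = 0.0586), nor when only the groups compared were fitted.

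Genes that set thin filament length, cap its ends or anchor it passed in both directions. Of 17 tested, 6 rose and 6 fell in vector TAC against vector sham, where 30.3% of all genes were higher and 26.2% lower. In PRODH TAC against vector TAC 6 were higher and 5 lower (18.5% and 24.6% of all genes). List medians were 0.09 and -0.06, beside 0.02 and -0.04 for all genes. Lmod3, a leiomodin that nucleates actin filaments in muscle, averaged 51.8 ± 3.46 CPM in PRODH TAC, 32.5 ± 1.91 in vector TAC, 54.2 ± 3.55 in PRODH sham, against 58.8 ± 6.43 in vector sham (SD, n = 4). It fell in vector TAC against vector sham (-0.85 ± 0.08, edgeR adjusted p = 2.11e-10), was higher in PRODH TAC than in vector TAC (0.67 ± 0.08, edgeR adjusted p = 5.18e-08), and had an interaction of 0.79 (edgeR adjusted p = 3.48e-06). Fhod3, a formin needed for sarcomere assembly, and Tmod4, a tropomodulin that caps pointed ends, moved likewise in these comparisons. They were at -0.59 and -0.78 in vector TAC against vector sham, and 0.40 and 0.54 in PRODH TAC against vector TAC. The interaction passed for Fhod3 but not for Tmod4. Tmod4 averaged 16.1 ± 0.514 CPM in PRODH sham, against 13.6 ± 0.877 in vector sham (SD, n = 4), a difference that did not pass. Nebl, the cardiac nebulette at the Z-disc, averaged 161 ± 8.37 CPM in PRODH TAC, against 91.6 ± 16.5 in vector TAC (SD, n = 4; 0.81 ± 0.12, edgeR adjusted p = 2.97e-05).

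Tmod3, the widely expressed tropomodulin, and Nrap, an anchor of actin at the intercalated disc, moved the opposite way. They rose in vector TAC against vector sham by 0.84 and 0.75 on the log2 scale (edgeR adjusted p = 5.86e-09 and 2.2e-09). In PRODH TAC they were at -0.26 and -0.36 relative to vector TAC (edgeR adjusted p = 0.0202 and 0.000415). Neither passed without vector TAC libraries 3 and 4 (Tmod3 -0.25, edgeR adjusted p = 0.0822; Nrap -0.19, edgeR adjusted p = 0.0641), and 6 genes of this list then passed in that comparison, against 11 with all libraries. The Tmod3 call was also lost under library size alone (-0.21, edgeR adjusted p = 0.073). It was lost in 9 of the 16 fits that left out 1 library (vector sham 4, PRODH sham 1, 2, 3 or 4, vector TAC 1 or 4, PRODH TAC 3 or 4), with edgeR adjusted p up to 0.101.

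Genes of actin monomer binding and filament turnover mostly shared the course of the cytoplasmic actins. Of 15 tested, 10 rose and 1 fell in vector TAC against vector sham (30.3% and 26.2% of all genes), with a list median of 0.39 beside 0.02 for all genes. Between PRODH TAC and vector TAC 0 were higher and 11 lower (18.5% and 24.6% of all genes), with a median of -0.24 beside -0.04. Tmsb10 and Tmsb4x, thymosins that hold actin monomers, rose by 1.47 and 0.84 in vector TAC against vector sham and were lower in PRODH TAC than in vector TAC, at -0.54 and -0.49. Cfl1, the cofilin that severs filaments in non-muscle cells, averaged 50.4 ± 0.911 CPM in PRODH TAC, 73.6 ± 3.30 in vector TAC, 41.1 ± 4.95 in PRODH sham, against 42.7 ± 4.67 in vector sham (SD, n = 4). Gsn, gelsolin, which severs and caps filaments, averaged 227 ± 23.3 CPM in PRODH TAC, 547 ± 67.4 in vector TAC, 222 ± 9.15 in PRODH sham, against 174 ± 39.9 in vector sham (SD, n = 4). Gsn was 0.415 times as high in PRODH TAC as in vector TAC (-1.27 ± 0.13, edgeR adjusted p = 3.22e-07). Arpc2 and Arpc3, subunits of the Arp2/3 complex that branches filaments, were at -0.54 and -0.44 in that comparison (edgeR adjusted p = 4.94e-07 and 4e-05). Cap1, a monomer-recycling protein, rose in vector TAC against vector sham (0.83, edgeR adjusted p = 1.28e-09) and was at -0.19 in PRODH TAC against vector TAC (edgeR adjusted p = 0.0526). Fibroblast, endothelial and myeloid markers moved with this list in the comparisons with vector TAC as given above, and their part in it was not tested.

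Of 13 tested transcription factors and cofactors of thin filament genes, 4 rose and 3 fell in vector TAC against vector sham, a share near that of all genes (56.5%). In PRODH TAC against vector TAC 5 were higher and 2 lower (18.5% and 24.6% of all genes). Ankrd1, a stress-induced ankyrin repeat protein of the sarcomere, had the smallest p of the list in both comparisons. Ankrd1 averaged 1300 ± 49.5 CPM in PRODH TAC, 1933 ± 224 in vector TAC, 444 ± 27.2 in PRODH sham, against 522 ± 48.1 in vector sham (SD, n = 4). It rose in vector TAC against vector sham (1.89 ± 0.08, edgeR adjusted p = 7e-18) and was lower in PRODH TAC than in vector TAC (-0.57 ± 0.08, edgeR adjusted p = 1.09e-06). Mrtfb, an actin-sensing SRF cofactor, rose in vector TAC against vector sham (0.66 ± 0.10, edgeR adjusted p = 8.53e-07) and was at 0.05 in PRODH TAC against vector TAC (edgeR adjusted p = 0.704). Myocd, a muscle-specific SRF cofactor, was higher in PRODH TAC than in vector TAC (0.55 ± 0.11, edgeR adjusted p = 0.000142). Mef2a and Tead1 were also higher in PRODH TAC than in vector TAC, by 0.39 and 0.28 (edgeR adjusted p = 0.000492 and 0.00474). Fhl2, a LIM protein of the sarcomere, fell in vector TAC against vector sham (-0.78 ± 0.07, edgeR adjusted p = 6.93e-11).

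**Figure D5:**
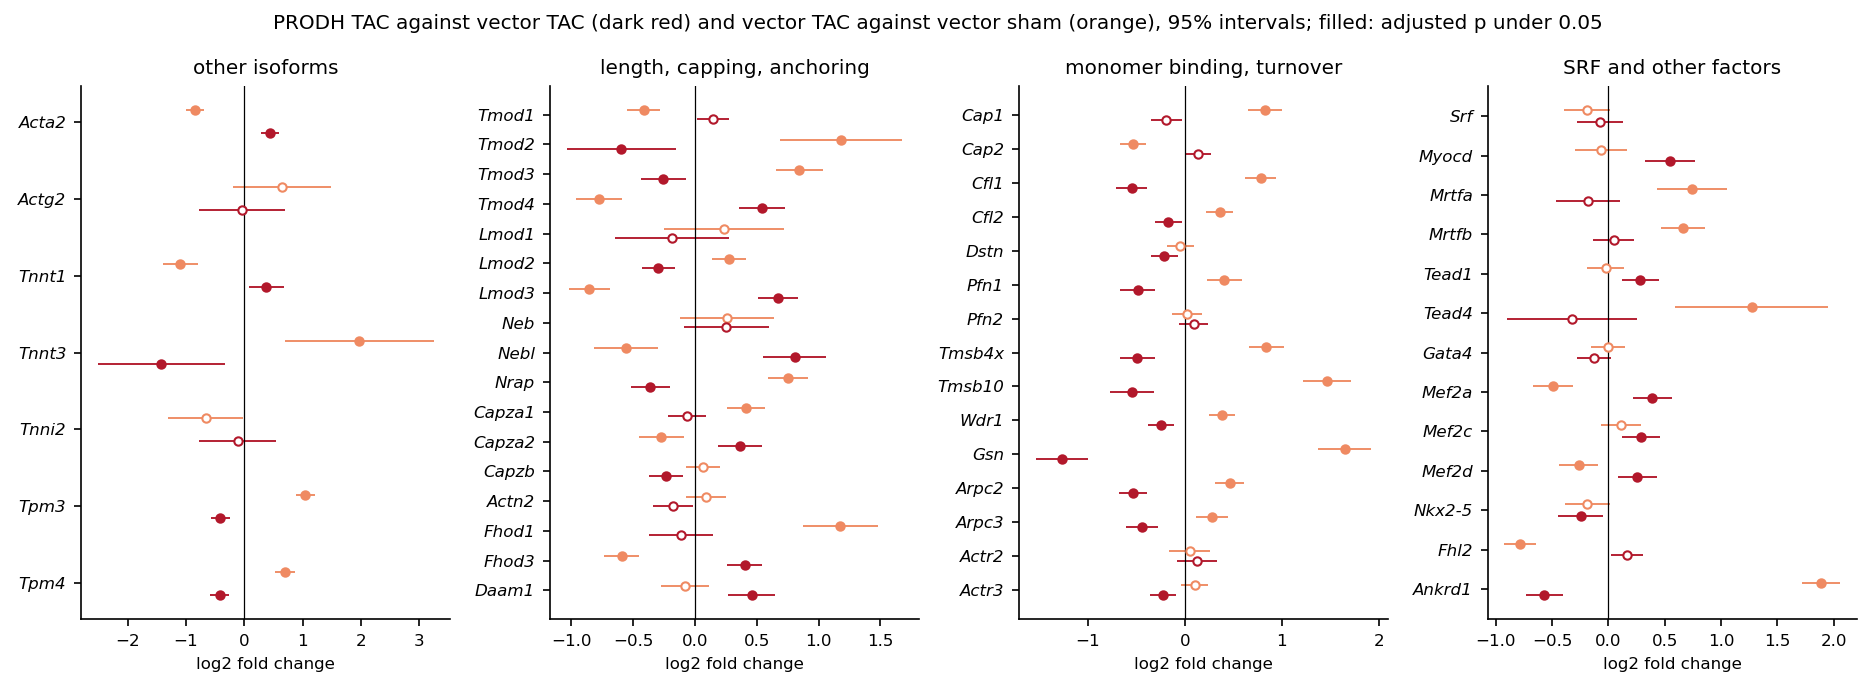
Log2 fold change with 95% interval of the tested genes of 4 lists in PRODH TAC against vector TAC (dark red) and vector TAC against vector sham (orange), filled where the edgeR adjusted p is under 0.05. Both comparisons contain vector TAC, so opposite signs in a gene are not 2 independent results; in the turnover list 11 dark red points pass, all below 0, and 10 of 11 passing orange points lie above 0.

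The genes whose level across the 16 libraries was most like that of 4 members were taken from 8075 genes of at least 5 CPM, by Pearson's r of log2 CPM. These values describe libraries that fall into 4 groups and share scaling, so they mostly restate group differences. Acta1 was most like Aoc3 (r = 0.99, n = 16 libraries), Sparc, Gask1b, Col6a3 and Cd34 (r = 0.98 each). Actb was most like Esam and Col5a3 (r = 0.99 each), Cyth3, Col5a2 and Sgk1 (r = 0.98 each). Tpm2 was most like Col4a1, Nes, Trp53i11, Pcdhgc3 and Fscn1 (r = 0.95 to 0.97). Actc1 was most like Fbxl22 (r = 0.98), Fxyd1, Ndufa7, Tle5 and Cryab (r = 0.95 to 0.97), and under library size alone those 5 values dropped to between 0.34 and 0.81.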

How the data were processed

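RNA was measured by sequencing in 16 cardiomyocyte libraries, grouped by their labels. The values are estimated counts per gene, not scaled for depth, as deposited by the authors in a table that also holds gene lengths (used for RPKM) and group means (not used). RNA was extracted with TRIzol, treated with DNase I and made into libraries with a SMARTER mRNA-Seq kit, per the labels' protocols. For aligner, counting tool, annotation and build: not given in the sources used here. In 9538 of 57010 gene rows some count is fractional, so reads were divided between similar genes.

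Counts were rounded to whole numbers. The filter on low counts was filterByExpr with a minimum count of 10 and a minimum total of 15, which kept 14066 genes. Scaling was by TMM, and the 4 groups were fitted over all 16 libraries with edgeR 4.0.16 (quasi-likelihood, robust) in R 4.3.3. P-values were adjusted by Benjamini-Hochberg over all genes tested, with a threshold of 0.05. Fitted folds used a prior count of 0.125. CPM, and RPKM from the deposited lengths, were computed from the rounded counts with TMM library sizes. Ratios of levels per length, from the deposited counts, were compared with two-sided exact permutation tests over libraries. Alternatives used limma 3.58.1, DESeq2 1.42.0, other scalings and filters, a replicate block and fewer libraries. The test was tried on simulated counts.

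Members and gene lists were chosen with earlier results of these data known. From each list, up to 4 passing genes with the smallest p in vector TAC against vector sham and in PRODH TAC against vector TAC are named, and 5 genes most like each of 4 members. Over 24 pairs of libraries within a group, the chi-square per gene of their counts was 2.87 to 30.7, so no pair differed by counting error alone. This value cannot tell whether libraries came from the same mouse.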

Additional observations from a re-analysis of the deposited data

Results flagged for a closer look

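The effect of TAC differed between PRODH and vector hearts by the interaction test of edgeR (adjusted p under 0.05) for 2 of the 9 tested members and 18 of the 24 other genes named from the lists. Of all 14066 tested genes 26.8% passed, so the share among the members was not above that of all genes. Those 24 were named for small p-values in vector TAC against vector sham or PRODH TAC against vector TAC, which also enter the interaction, so their count is a description of the choice. It was smaller or more negative with PRODH for Acta1 (-0.81), Actb (-0.38), Tpm3 (-0.63), Nrap (-0.36), Tmod3 (-0.43), Tmsb10 (-0.59), Cfl1 (-0.49), Tmsb4x (-0.60), Gsn (-1.62), Arpc2 (-0.61), Arpc3 (-0.41) and Ankrd1 (-0.34), on the log2 scale. It was larger or more positive with PRODH for Acta2 (0.69), Lmod3 (0.79), Fhod3 (0.42), Nebl (0.72), Fhl2 (0.36), Mef2a (0.41), Myocd (0.48) and Tead1 (0.39). Without vector TAC libraries 3 and 4 it did not pass for Nrap (-0.19, edgeR adjusted p = 0.193), Tmsb10 (-0.47, edgeR adjusted p = 0.0689) or Mef2a (0.31, edgeR adjusted p = 0.0874), nor under library size alone for Ankrd1 (-0.32, edgeR adjusted p = 0.072). Of the 16 fits that left out 1 library, it was lost in 9 for Ankrd1, 5 for Tmod3, 4 for Nrap, 3 for Tmsb10, 2 for Myocd (without vector TAC 2 or PRODH TAC 3) and 1 each for Arpc3 (PRODH sham 4) and Actb (vector sham 1), with edgeR adjusted p up to 0.114. For Ankrd1 these were vector sham 2, 3 or 4, PRODH sham 1, 2 or 3, vector TAC 1 and PRODH TAC 2 or 4. For Tmod3 they were vector sham 1, 2 or 4 and PRODH sham 2 or 3, for Nrap vector sham 3 or 4 and PRODH sham 2 or 3, and for Tmsb10 vector sham 1 or 4 and PRODH sham 4.

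Single libraries stood far from the other 3 of their group in 7 of 160 sets of values, where chance gives about 1 in 20. Tnnt1 had 6.69 CPM in PRODH TAC library 4, against 5.16 to 5.36 in the others. Lmod3 had 46.6 CPM in PRODH TAC library 2, against 53.1 to 53.8. Cfl1 had 68.7 CPM in vector TAC library 1, against 75.0 to 75.6, and 48.5 CPM in PRODH sham library 4, against 38.1 to 39.2. The Tpm2 to Tpm1 ratio was 0.00265 in vector TAC library 3, against 0.00233 to 0.00238. Tnni1 had 0.181 CPM in vector sham library 3, against 0.0507 to 0.0712, and Tnnt3 had 0.370 CPM in vector sham library 4, against 0 to 0.0604, both at counts of a few reads.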

How the results depend on the processing

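Library size alone turned the direction of these log2 fold changes. In vector TAC against vector sham they became 0.22 for Actc1, 0.34 for Tnnc1, 0.13 for Tpm1, 0.29 for Myocd and 0.33 for Tead1. In PRODH TAC against PRODH sham they became 0.13 for Actc1, 0.18 for Tnnc1, 0.0557 for Tpm1, 0.22 for Acta2, 0.31 for Lmod3, 0.21 for Fhod3, 0.24 for Arpc2, 0.25 for Arpc3 and 0.29 for Mef2a. In PRODH TAC against vector sham they became 0.15 for Actc1, 0.39 for Actg1, 0.17 for Tnnc1, 0.12 for Tpm1, 0.21 for Lmod3, 0.21 for Fhod3, 0.16 for Tmod4, 0.33 for Arpc2, 0.24 for Arpc3 and 0.30 for Mef2a. The shift of the median gene given in the report accompanies them. It also raised the count of passing genes in PRODH TAC against PRODH sham to 8186, against 4925. Other member values that changed sign were called neither before nor after (72 values).

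Members passing in PRODH TAC against vector TAC numbered 3 without vector TAC libraries 3 and 4, against 5. In PRODH sham against vector sham they numbered 2 with no filter and 2 without those libraries, against 1. Leaving out each library in turn gave 6 to 7, 4 to 5, 7 to 9, 1 to 2, 6 to 8 and 1 to 2 members in vector TAC against vector sham, PRODH TAC against vector TAC, PRODH TAC against PRODH sham, PRODH sham against vector sham, PRODH TAC against vector sham and the interaction. The cause was not tested. In PRODH TAC against vector TAC, 3 other isoforms passed with DESeq2 or without vector TAC libraries 3 and 4, against 5. There, 5 endothelial markers passed under library size alone or without vector TAC libraries 3 and 4, against 8. Cardiomyocyte markers passing in vector TAC against vector sham numbered 5 under library size alone, against 8. Ratios kept their side with 0.5 added to every count; with 3 or fewer libraries in a group the exact test cannot reach 0.05. DESeq2 size factors and TMM without mitochondrial genes changed no call on a member.

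Replicate numbers did not meet the rule for pairing, a correlation over 0.1 in every pair: of 24 correlations between same-numbered libraries (-0.15 to 0.20), 6 were over 0.1. All 6 among libraries numbered 1 were positive (0.0486 to 0.201). In 18 of 48 cases a library correlated best with its own number in another group, where 12 would do so if numbers meant nothing. With the replicate block, 7, 5, 9, 1, 8 and 2 members passed in the same order of comparisons, against 7, 5, 8, 1, 8 and 2.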
